A study of Mus musculus with 2 samples.

Results

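The genes described here sense sterols and control the sterol regulatory element binding proteins (SREBPs). They are the 9 genes Srebf1, Srebf2, Scap, Insig1, Insig2, Mbtps1, Mbtps2, Nr1h2 and Nr1h3, chosen by name from the deposited gene annotation with transcript models of every class counted. All 9 had reads in both libraries, of 16910 annotated nuclear genes with a read in either. Whole adrenal glands of female mice of the first-generation hybrid B6CASTF1/J, aged 2 months, were sequenced as long-read libraries from total RNA. The 2 libraries are biological replicates 1 and 2 of 1 group with no treatment in the labels, so the design implies a description of the gland and a comparison of the libraries with each other. The biosample labels number the animals 3 and 4, both library labels carry the number 3, and 1 donor identifier is given for both. An RNA input of 1 µg is stated for replicate 1 alone. P-values thus set the difference between 2 libraries against counting error alone and hold no estimate of technical or biological spread. Reads were not assigned to the parental alleles.

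SREBPs are transcription factors made as precursors in the membrane of the endoplasmic reticulum (ER), where they are bound to the cholesterol sensor Scap. When sterols are scarce, Scap carries the precursor in COPII vesicles to the Golgi, where the site-1 protease (Mbtps1) and the site-2 protease (Mbtps2) release the active part. When sterols are plentiful, Insig1 and Insig2 hold Scap in the ER. The liver X receptors LXRα (Nr1h3) and LXRβ (Nr1h2) are nuclear receptors for oxysterols that turn on cholesterol export genes and, in liver, the Srebf1 gene itself. In the adrenal cortex cholesterol is the raw material of the steroid hormones.

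Srebf1 is transcribed from alternative first exons, and the parts of the messages that differ are shown because the reads told them apart. The upstream first exon belongs to the form named SREBP-1a, with the longer acidic activation region, and the downstream one to SREBP-1c. The coding part of each first exon is in capitals, followed by the first bases of the shared exon 2 in lower case (GENCODE M21 transcripts Srebf1-201 and Srebf1-207, mm10, minus strand). The capitals cover chr11:60220453-60220543 and chr11:60210336-60210354.
Srebf1 upstream first exon: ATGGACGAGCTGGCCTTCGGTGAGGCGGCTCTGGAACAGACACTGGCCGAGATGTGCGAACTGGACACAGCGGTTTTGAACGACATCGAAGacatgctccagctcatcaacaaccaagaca
Srebf1 downstream first exon: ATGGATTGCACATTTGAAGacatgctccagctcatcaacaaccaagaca
The capitals hold 91 and 19 coding bases, so a message with the upstream exon codes for 24 more residues at the start of the protein. Exon 4 of Srebf1 also has alternative ends 15 bases apart (chr11:60206173-60206187), here in capitals between the rest of exon 4 and the start of exon 5.
Srebf1 exon 4 end: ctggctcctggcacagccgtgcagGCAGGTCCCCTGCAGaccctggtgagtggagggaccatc
In Nr1h2, exon 3 and exon 5 each have alternative starts. The capitals mark bases kept by the longer form of exon 3, which lie before the coding region (chr7:44552755-44552757, minus strand, Nr1h2-202), and of exon 5, which are coding (chr7:44552237-44552245, Nr1h2-201).
Nr1h2 exon 3 start: gcctggaacaagCAGgctgcttcgtga
Nr1h2 exon 5 start: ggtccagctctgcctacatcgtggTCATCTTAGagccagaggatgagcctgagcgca

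The libraries held 1209457 and 502655 reads of annotated nuclear genes in replicates 1 and 2, and levels are given as CPM, the reads of a gene scaled to a common total of these reads. A count of 3 reads, taken as the floor, is 2.48 CPM in replicate 1 and 5.97 CPM in replicate 2, and intervals are exact 95% intervals that cover counting error only. Cortex marker genes summed to 57436 and 75863 CPM over 7 of 7 genes, so the tissue label holds. Among them are Cyp11a1 and Star, the enzyme and carrier that begin steroid synthesis. Of the 7, 5 lay higher and 2 lower in replicate 2, and only Cyp21a1, a cortical hydroxylase, was called (higher, 14022 and 28073 CPM). The lower ones were Cyp11a1 (20228 and 19861 CPM) and Cyp11b2 (1086 and 844 CPM). Medulla markers summed to 11580 and 6677 CPM, with 3 of 5 genes lower in replicate 2, of which Chgb and Pnmt were called. Th (1307 and 1371 CPM) and Dbh (116 and 177 CPM) lay higher and were not called. Hepatocyte markers summed to 155 and 61.7 CPM with Alb and Apoa1 called lower. Adipocyte markers summed to 3803 and 3613 CPM and macrophage markers to 433 and 406 CPM, with none of the 6 genes of either list called. Of the adipocyte genes 3 lay higher and 3 lower in replicate 2. Among them Cfd, most of the sum, was lower (2480 and 1910 CPM) and Ucp1 higher (429 and 768 CPM), each by less than 2-fold. Endothelial markers summed to 429 and 678 CPM with Eng called higher, fibroblast and capsule markers to 507 and 358 CPM with Col1a2 called lower, and kidney markers to 4.96 and 3.98 CPM with Lrp2 at 0 in both libraries. Incomplete splice matches, which hold only part of an annotated chain of introns, made up 11.6% of reads in replicate 1 and 7.08% in replicate 2. In bulk tissue, fewer cells of a type and less RNA per cell cannot be told apart.

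Insig1, an ER anchor of Scap and itself an SREBP target, was the most abundant of the 9 by a wide margin. It had 1181 reads (976 CPM, interval 922 to 1034) in replicate 1 and 309 reads (615 CPM, 548 to 687) in replicate 2. Its mean of 795.6 ± 256 CPM (SD, n = 2) lay above 99.2% of genes with a read. Insig1 alone gave 56.6% and 43.8% of the reads of all 9 genes, which summed to 1726 and 1403 CPM (mean 1564 ± 229, SD, n = 2). Insig2, its less inducible relative with the same role, had 142 reads (117 CPM) in replicate 1 and 29 reads (57.7 CPM) in replicate 2. Insig1 thus had 8.32 and 10.7 reads for each read of Insig2, and both longest annotated transcripts are 2697 bases, so the ratio per length is the same. Against Scap, the partner that both Insig proteins bind, Insig1 stood at 8.44 and 4.61 reads per Scap read, or 13.2 and 7.23 per kb of transcript.

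**Figure D1:**
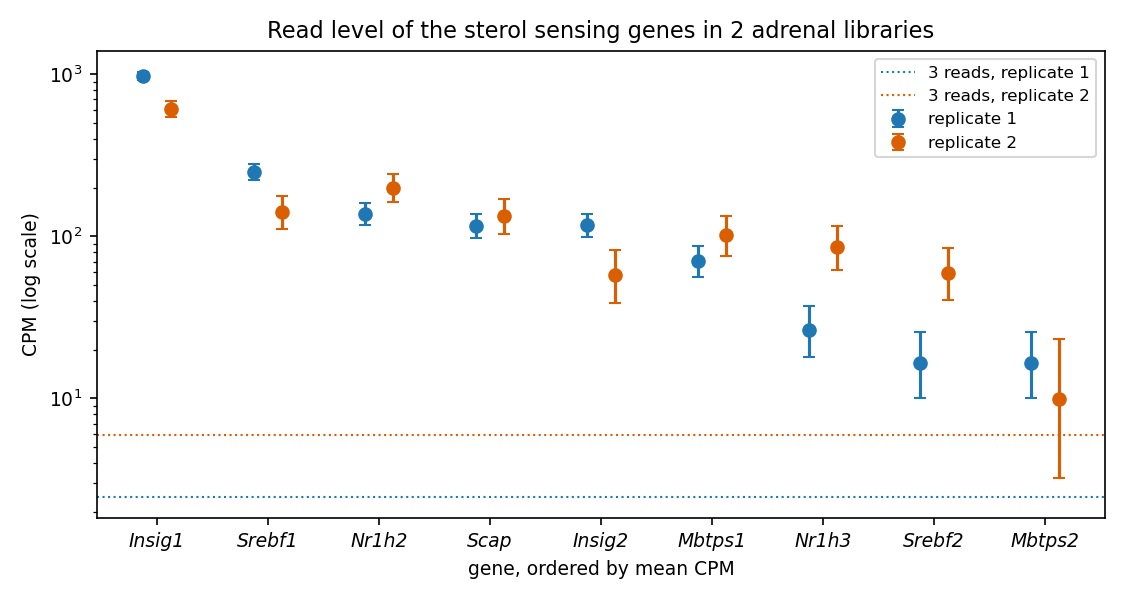
CPM of the 9 genes on a log scale in replicate 1 (blue) and replicate 2 (orange), with exact Poisson 95% intervals of the read counts as bars and the level of 3 reads as dotted lines. Insig1 stands at 976 and 615 CPM, above every other member in both libraries, and Mbtps2 in replicate 2 rests on 5 reads.

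Of the SREBP genes, Srebf1 was the more abundant in both libraries. It had 302 reads (249.7 CPM, 222 to 279.5) in replicate 1 and 71 reads (141 CPM, 110.3 to 178) in replicate 2. Srebf2, whose product mainly drives cholesterol synthesis, had 20 reads (16.5 CPM, 10.1 to 25.5) and 30 reads (59.7 CPM, 40.3 to 85.2). Srebf1 was above Srebf2 in each library, but the ratio of their reads was 15.1 in replicate 1 and 2.37 in replicate 2. Per kb of the longest annotated transcript the ratio was 17.8 and 2.79. Scap had 140 and 67 reads, or 116 and 133 CPM, the smallest spread of the 9 relative to its mean (125 ± 12.4 CPM, SD, n = 2).

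The proteases were unequal in level. Mbtps1 had 85 reads (70.3 CPM) and 51 reads (101 CPM) in replicates 1 and 2, and Mbtps2 had 20 reads (16.5 CPM) and 5 reads (9.95 CPM, interval 3.23 to 23.2). Mbtps1 was higher in both libraries, by 4.25 and 10.2 times in reads. Per kb of the longest annotated transcript it was 3.00 and 7.21 times. That transcript has 6789 bases for Mbtps1, whereas Mbtps1-201, its most read annotated transcript, has 4195. Of the receptors, Nr1h2 had 166 reads (137 CPM) and 100 reads (199 CPM), and Nr1h3 had 32 reads (26.5 CPM) and 43 reads (85.5 CPM). Nr1h2 was therefore above Nr1h3 in both libraries, with 5.15 and 2.31 times as many reads per kb.

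In order of mean CPM the genes ran Insig1, Srebf1, Nr1h2, Scap, Insig2, Mbtps1, Nr1h3, Srebf2 and Mbtps2. The values of the 2 libraries did not overlap between Insig1 and Srebf1 or between Nr1h2 and Scap. The counting intervals of Nr1h2 and Scap did overlap in each library. For each other pair of neighbours the values overlapped across libraries. Within each library Mbtps1 lay above Nr1h3 and Nr1h3 above Srebf2, with overlapping intervals in replicate 2. Srebf1 and Nr1h2, Scap and Insig2, and Insig2 and Mbtps1 changed order between the libraries, so their order is not settled. Srebf2 and Mbtps2 were equal in replicate 1, and Srebf2 was the higher in replicate 2. Per kb of the longest annotated transcript, 6 of the 9 changed place, and Insig1 stayed highest at 295 CPM per kb ahead of Nr1h2 at 84.1 and Srebf1 at 45.5. Mbtps2 stayed lowest at 2.76 CPM per kb.

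The libraries were then compared gene by gene with a two-sided Fisher's exact test, adjusted by the Benjamini-Hochberg method over 10170 genes. A call required an adjusted p below 0.05 together with a 2-fold or larger difference. Across all genes 9.55% were called, 5.96% higher and 3.59% lower in replicate 2, or 606 and 365 genes, and 727 and 270 with TMM scaling. Of the 9 members 3 were called, Srebf2 and Nr1h3 higher and Insig2 lower in replicate 2. Srebf2 differed by a log2 ratio of 1.84 (SE 0.41, from counting alone, adjusted p = 1.20e-04) and Nr1h3 by 1.69 (SE 0.33, adjusted p = 1.38e-05). Insig2 differed by -1.01 (SE 0.29, adjusted p = 0.0029), at the edge of the 2-fold limit. Its call was lost with TMM scaling (-0.91), median of ratios scaling (-0.92), 1 added read (-0.99) and the deeper library thinned (-0.94), and its ratio ran from -1.11 to -0.91 over 11 alternative settings. Insig1 (-0.67, adjusted p = 3.37e-12), Srebf1 (-0.81, adjusted p = 1.10e-04) and Nr1h2 (0.54, adjusted p = 0.025) differed beyond counting error but by less than 2-fold. At an adjusted p alone, 6 of 9 members passed, where 17.9% of all genes did. Scap (0.21, adjusted p = 0.62), Mbtps1 (0.54, adjusted p = 0.17) and Mbtps2 (-0.63, adjusted p = 0.64) did not pass. In all, 5 members lay higher and 4 lower in replicate 2, with a median log2 ratio of 0.21 beside -0.06 over all genes tested.

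The first exon of Srebf1 was read in 195 reads of replicate 1 and 58 of replicate 2. The upstream exon, of SREBP-1a (chr11:60220453-60220604), was in 100 and 38 of these reads, and the downstream exon, of SREBP-1c (chr11:60210336-60210465), in 95 and 20. The still more distant first exon of Srebf1-204 (chr11:60222523-60222581) had no reads. The upstream share was 51.3% (44.0 to 58.5) in replicate 1 and 65.5% (51.9 to 77.5) in replicate 2, a mean of 58.4% ± 10.1 (SD, n = 2). The intervals overlapped, and a two-sided Fisher's exact test gave p = 0.071 and an adjusted p of 1 over the 2000 genes tested in the same way, of which 0.05% were called. In CPM, the upstream form stood at 82.7 and 75.6, and the downstream form at 78.5 and 39.8. The libraries thus lay further apart in the downstream form, a difference that the test of the share did not call. These CPM count only reads with a first exon, which were 64.6% of Srebf1 reads in replicate 1 and 81.7% in replicate 2. The forms are therefore not measured alike in the libraries.

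The annotation treated the forms unequally. Of the upstream reads, 79 and 30 were Srebf1-201, the annotated transcript of 19 exons. All 115 downstream reads were in chains of introns absent from M21, which has that exon in Srebf1-207 and Srebf1-208 alone. Of these 115, 105 ran from the downstream exon through the complete set of introns from exon 2 on, and 114 reached the last annotated intron. The most read such chain had 19 exons, 4204 bases, and 75 and 13 reads. Read in the frame of Srebf1-201, it codes for 1110 residues beside 1134. Counting annotated models alone, the upstream share would be 100% in both libraries, and the Srebf1 log2 ratio moved from -0.81 to -0.17 (adjusted p = 0.80). At that setting 5 members were called, and 13.9% of genes.

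**Figure D2:**
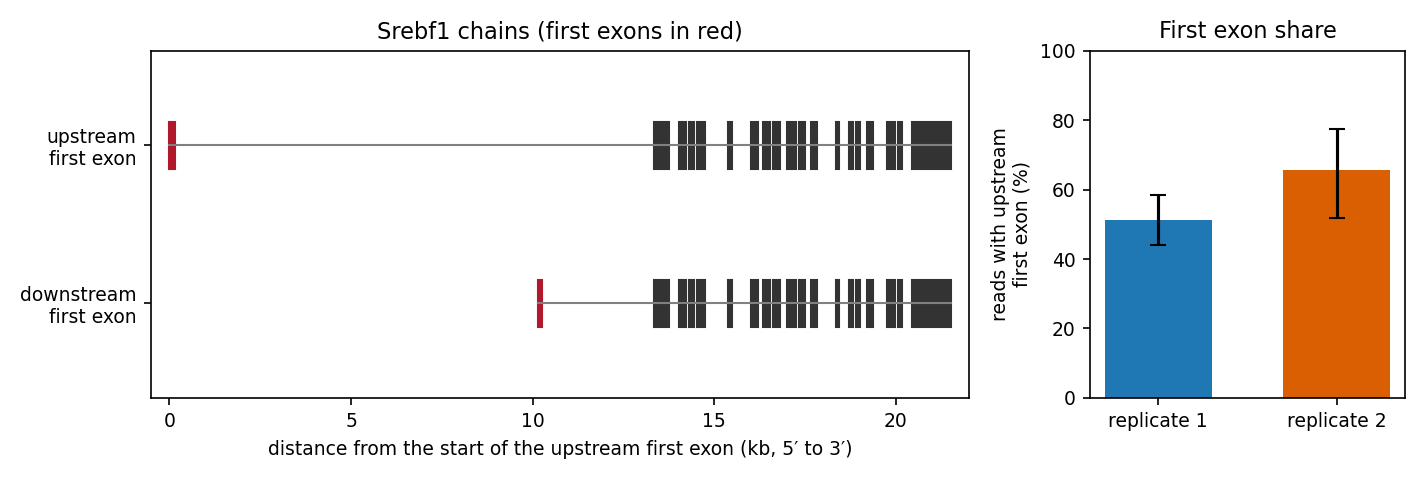
Left, exons of the 2 Srebf1 chains drawn to scale against distance in kb from the start of Srebf1-201, with first exons in red. Right, the percentage of first-exon reads that hold the upstream exon in each library, with exact Clopper-Pearson 95% intervals: 51.3% of 195 reads and 65.5% of 58.

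Exon 4 ended in either place with either first exon. The longer exon, with the 15 bases in capitals, was in 223 of 255 reads in replicate 1 (87.5%, 82.7 to 91.3) and 52 of 64 in replicate 2 (81.3%, 69.5 to 89.9). Among upstream reads it was in 85.9% and 86.8%, and among downstream reads in 88.4% and 75.0%, with overlapping intervals in each library. The 15 bases code for 5 residues without a change of frame.

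The windows around the Srebf1 start sites, 250 bases before to 50 after, are shown because both gave reads (RefSeq, GRCm38.p6, minus strand, chr11:60220578-60220877 upstream and chr11:60210422-60210721 downstream). Capitals mark the letters GGGCGG of a GC box and CCAAT of a CCAAT box on either strand, which do not overlap here.
Srebf1 upstream window: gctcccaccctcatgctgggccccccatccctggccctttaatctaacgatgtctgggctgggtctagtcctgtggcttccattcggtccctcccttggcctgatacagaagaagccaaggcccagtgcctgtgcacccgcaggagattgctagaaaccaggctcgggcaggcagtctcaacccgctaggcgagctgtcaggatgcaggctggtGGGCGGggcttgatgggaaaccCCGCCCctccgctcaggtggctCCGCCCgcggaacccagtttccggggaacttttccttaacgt
Srebf1 downstream window: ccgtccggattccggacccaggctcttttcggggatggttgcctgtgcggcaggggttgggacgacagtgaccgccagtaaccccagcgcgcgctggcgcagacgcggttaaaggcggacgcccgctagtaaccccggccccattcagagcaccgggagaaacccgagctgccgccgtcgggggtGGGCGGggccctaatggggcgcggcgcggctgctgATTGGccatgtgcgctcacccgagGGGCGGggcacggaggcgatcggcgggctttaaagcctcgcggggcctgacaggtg
The upstream window held GGGCGG 3 times, and the downstream window held it 2 times with 1 CCAAT. These letters are common, in 35.7% and 37.4% of all 32851 promoter windows of the same length. CACGTG, an E-box, was in the window of Insig1 and in both of Scap, and in 7.15% of all windows. TCACCCCAC, a core of a sterol regulatory element, was in no member's window and in 0.55% of all. Only these exact letters were searched, so variant or more distant sterol regulatory elements were not looked for. AGGTCA, a nuclear receptor half-site, was in the Insig1 window alone and in 16.3% of all, and TATAAA was in both Scap windows and in 13.6% of all.

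Nr1h2 used its alternative starts in much the same proportions in both libraries. The 9 bases at the start of exon 5, which code for 3 residues of LXRβ, were kept in 82 of 130 reads (63.1%, 54.2 to 71.4) and 50 of 84 reads (59.5%, 48.3 to 70.1). The 3 bases CAG at the start of exon 3 were kept in 31 of 119 reads (26.1%, 18.4 to 34.9) and 28 of 94 (29.8%, 20.8 to 40.1). Among reads without CAG the longer exon 5 was in 70.0% and 58.9%, and among reads with CAG in 54.8% and 60.0%, with overlapping intervals. All combinations were thus read. Nr1h2-201 had 45 and 26 reads, Nr1h2-203 had 16 and 22, Nr1h2-202 had 10 and 7, and the fourth combination, which M21 does not hold, had 14 and 13.

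Nr1h3 reads used overlapping annotated first exons with different ends, none of which holds coding bases. Reads were assigned to them by the end of the exon and not by where a read begins. The first exon of Nr1h3-201 (chr2:91194965-91195116) was in 7 of 23 first-exon reads (30.4%, 13.2 to 52.9) in replicate 1 and 25 of 39 (64.1%, 47.2 to 78.8) in replicate 2. That of Nr1h3-202 (chr2:91195033-91195151) was in 12 and 13 reads, and that of Nr1h3-204 (chr2:91194731-91195035) in 4 and 1. The share of the Nr1h3-201 exon lay further apart than the Srebf1 share, with intervals that overlap (two-sided Fisher's exact test, p = 0.017, adjusted p = 1). In replicate 2 Nr1h3-201 had 23 of 43 reads, whereas in replicate 1 Nr1h3-202 led with 10 of 32.

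Insig1 reads were nearly all of a single transcript. Insig1-201, of 5 exons, had 1125 of 1181 reads (95.3%) and 299 of 309 (96.8%). Its first exon, the only one counted for Insig1, was in 1145 of 1181 reads (97.0%) and 303 of 309 (98.1%). Insig2 had a second form in both libraries. Insig2-201 had 107 and 23 reads, and a chain new to M21 had 16 and 4. The new chain joins the usual first exon to a site 67 bases further into exon 2, in a stretch without coding bases. That intron was in 18 of 133 reads (13.5%, 8.22 to 20.5) and 4 of 27 (14.8%, 4.19 to 33.7), close in the libraries although the total Insig2 level was not.

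Scap and Mbtps1 were read mostly in part in replicate 1. In Scap, 95 of 140 reads (67.9%, 59.4 to 75.5) of replicate 1 began inside the gene, at an internal exon, against 9 of 67 (13.4%, 6.33 to 24.0) of replicate 2. In Mbtps1 it was 57 of 85 (67.1%) against 12 of 51 (23.5%), in Nr1h2 41.6% against 12.0% and in Srebf1 32.5% against 14.1%. For Insig1 it was 0.59% and 0.32%, and for Insig2 0.70% and 0 of 29 reads. Replicate 1 was the higher in Scap, Mbtps1, Nr1h2 and Srebf1, with intervals that did not overlap. For Insig1 and Insig2 such reads were too few to give a direction, and the intervals overlapped. Among the other members it was 5 of 20 and 3 of 30 reads in Srebf2, 7 of 32 and 1 of 43 in Nr1h3, and 0 in both libraries in Mbtps2. The annotated transcripts have 1999 bases for Nr1h2-201, 2697 for Insig1-201 and Insig2-201, 4195 for Mbtps1-201, 4227 for Scap-201 and 4299 for Srebf1-201. Whether such reads are cut short or begin at an internal start was not tested. Of spliced Scap reads of replicate 1, 82.7% held intron 14 and 55.4% held intron 13, beside 97.0% and 88.1% in replicate 2, and a chain of 10 exons that begins at exon 14 had 33 reads, as many as the complete Scap-201, and 5 in replicate 2.

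**Figure D3:**
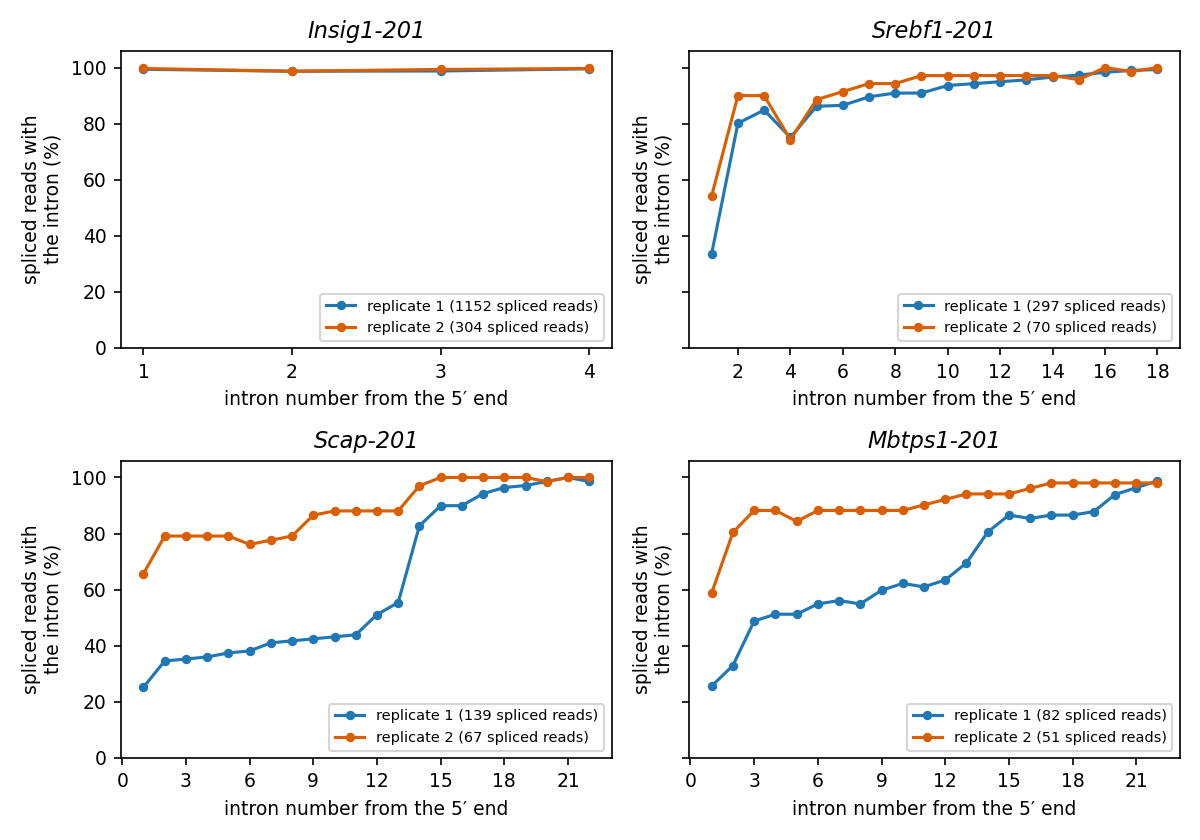
Percentage of spliced reads that hold each intron of the most read annotated transcript, numbered from the 5′ end, for Insig1, Srebf1, Scap and Mbtps1 in replicate 1 (blue) and replicate 2 (orange). Insig1 is flat near 99% in both libraries, Scap drops between introns 14 and 13 in replicate 1, and intron 1 of Srebf1-201 is held only by reads with the upstream first exon.

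The share of reads in annotated models moved with these incomplete reads. Scap-201, the only annotated Scap model with reads, had 33 of 140 reads (23.6%, 16.8 to 31.5) in replicate 1 and 40 of 67 (59.7%, 47.0 to 71.5) in replicate 2. Annotated Mbtps1 reads were 17 of 85 (20.0%) and 26 of 51 (51.0%), and annotated Srebf1 reads 82 of 302 (27.2%) and 32 of 71 (45.1%). Of the 5 members with at least 50 reads in each library, these 3 were called in a two-sided Fisher's exact test of the share (adjusted p = 1.24e-05, 0.0020 and 0.022), with a limit of 10 percentage points. Among 2098 genes so tested 17.7% were called, and the median share was 84.9% and 90.3%. Nr1h2 (43.4% and 60.0%, adjusted p = 0.0501) and Insig1 (95.3% and 96.8%, adjusted p = 0.63) were not called. With incomplete splice matches counted as annotated, no member was called, where 4.96% of genes were, and the differences of Scap, Mbtps1 and Nr1h2 turned to -15.4, -13.7 and -10.3 percentage points. The share of the main transcript gave the same 3 members, Scap, Mbtps1 and Srebf1, where 16.7% of genes were called. The Srebf1 call there, at 26.2% and 42.3% with an adjusted p of 0.045, was lost at a minimum of 20 reads, at 0.061. That minimum, where 12.4% of genes were called, added Srebf2 (higher in replicate 2, adjusted p = 0.0083) and Nr1h3 (higher in replicate 2, adjusted p = 0.0093), for 4 members called. Counting reads with an annotated first exon alone, a setting chosen after seeing the data, 6 members were called between the libraries and 14.5% of genes, with Scap at a log2 ratio of 1.49, Mbtps1 at 1.85 and Nr1h2 at 1.05 added to the higher ones.

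**Figure D4:**
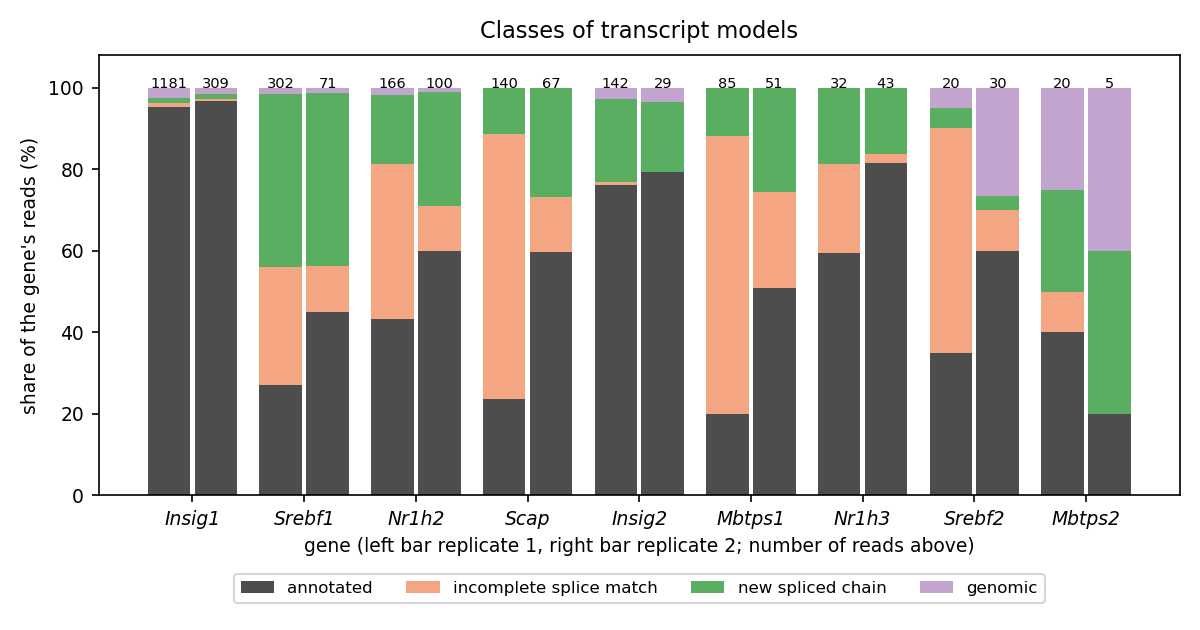
Share of each gene's reads in annotated models, incomplete splice matches, new spliced chains and genomic models, in percent, with replicate 1 on the left and replicate 2 on the right of each pair and read numbers above. Scap and Mbtps1 change most between libraries, from 23.6% to 59.7% and from 20.0% to 51.0% annotated, while new chains hold 42.4% and 42.3% of Srebf1 reads.

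Other new starts were few. Scap reads used mainly the first exon of Scap-201 (chr9:110333356-110333505), in 36 of 42 and 45 of 53 first-exon reads, with that of Scap-205 in 2 and 6. A splice site absent from M21, before exon 9 of Scap, began 2 and 5 reads. Mbtps1 reads used the first exon of Mbtps1-201 (chr8:119558646-119558735) in 21 and 31 reads and that of Mbtps1-209 (chr8:119558390-119558441) in 3 and 8. The latter led to a complete chain of 23 exons that is new to M21, with 2 and 8 reads.

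Srebf2 was read in pieces in replicate 1. The complete Srebf2-201, of 19 exons and 5077 bases, had 1 of 20 reads there and 15 of 30 in replicate 2. Single-exon reads numbered 8 in each library, and reads of Srebf2-205 and Srebf2-207, annotated as retained introns, 6 and 3. The call of Srebf2 as higher in replicate 2 was accompanied by more complete messages. The hairpin of Mir33, a microRNA that represses cholesterol export, lies in intron 16 of 18 (chr15:82198122-82198190). No read covered it, and 4 and 18 reads spliced that intron out. Mbtps2 had 8 and 1 complete reads of Mbtps2-201, too few to compare.

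The partners and targets of the pathway were compared in lists of named genes, with the same test over all 10170 genes. Over all of these, 9.55% were called, 5.96% higher and 3.59% lower in replicate 2, and each list count stands beside these shares. Of 22 tested SREBP-2 targets of cholesterol synthesis and uptake, 2 were called higher and 5 lower in replicate 2, with a median log2 ratio of -0.54. Hmgcs1, HMG-CoA synthase, was the most abundant at 2451 and 931 CPM (-1.39, adjusted p = 6.76e-102). It was lower in replicate 2, as were Lss (-1.24), Hsd17b7 (-1.12) and Stard4 (-2.93, from 27 and 1 reads). Dhcr7, which makes cholesterol in the last step of one branch, went the other way with 366 and 859 CPM (1.23, adjusted p = 7.73e-33), as did Nsdhl (1.01, adjusted p = 0.038). Annotated models held fewer than the 10 Dhcr7 reads needed for a test, so its level rests mainly on other models. With an annotated first exon alone the Dhcr7 ratio was 1.16 (SE 0.87) and was not called. The call of Hsd17b7 was lost without the genomic class (-0.19) and with annotated models alone (0.01), and that of Nsdhl with annotated models alone (0.98), with no read minimum and with the deeper library thinned. Fdps, at 986 and 668 CPM, was not called. Like Insig1, itself an SREBP target, most of the list was below 0, in 15 of 22 genes.

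Of 15 SREBP-1 targets of fatty acid synthesis, 3 were called higher and 1 lower, beside 5.96% and 3.59% of all genes. Their median was 0.26. Fatty acid synthase Fasn had 343 and 949 CPM (1.47), the stearoyl-CoA desaturase Scd1 229 and 889 CPM (1.96) and the desaturase Fads1 203 and 688 CPM (1.76), with adjusted p of at most 3.87e-46. Gpam, which begins triglyceride synthesis, had 369.6 and 177 CPM (-1.06, adjusted p = 5.89e-10). Its call was lost with TMM scaling (-0.96), median of ratios scaling (-0.97), the deeper library thinned (-0.94) and annotated models alone (-0.30). The most abundant were Acly (4390 and 5650 CPM), Fads2 (2433 and 4039 CPM) and Thrsp (1712 and 2085 CPM), none called. The Srebf1 level itself was lower in replicate 2 by less than 2-fold.

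Of 10 LXR targets 6 could be tested and none was called, at a median of 0.58. Apoe, the lipoprotein component, was abundant at 2203 and 2236 CPM, whereas the cholesterol exporter Abca1 had 13 and 9 reads and Abcg1 3 and 0. Lpcat3 stood at 170 and 157 CPM and Smpdl3a at 43.8 and 57.7 CPM. Of 3 tested oxysterol enzymes none was called, at a median of 0.32. Hsd3b7 led with 137 and 105 CPM, followed by Cyp27a1 with 14 and 7 reads and Cyp7b1 with 7 and 4. Ch25h, which makes 25-hydroxycholesterol, had 0 and 2 reads.

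Of the COPII coat genes, which build the vesicles that carry Scap, 1 of 11 was called, a share near the 9.55% of all genes. Sec31a had 17 and 68 reads (3.24, adjusted p = 7.46e-20), while Sar1a (533 and 354 CPM), Sec13 (147 and 163 CPM) and Sar1b (125 and 103 CPM) were not called, and the median was 0.15. Most Sec31a reads lay outside annotated models, which held too few for a test. With an annotated first exon alone the Sec31a ratio was 4.18 (SE 0.65). Of 14 genes for degradation of Insig and other proteins at the ER, 2 were called higher, beside 5.96% of all genes. They were the ubiquitin ligase gene Syvn1 (1.18, adjusted p = 0.010) and Tmub1 (2.13, adjusted p = 0.0040), and the median of the list was 0.52. Vcp (1232 and 844 CPM) and Ube2g2 (182 and 193 CPM) were among the most abundant and not called.

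Among 12 tested nuclear partners, 1 was called higher and 2 lower, beside 5.96% and 3.59% of all genes, at a median of 0.06. Lpin1 was the higher one (1.51, adjusted p = 0.0048). The corepressor gene Ncor1 (84.3 and 31.8 CPM, -1.37, adjusted p = 8.95e-04) and Nrip1 (-2.24, adjusted p = 0.028) were the lower ones. Rxrb, a partner of the LXRs, stood at 123 and 115 CPM. Of 4 tested other substrates of the site-1 and site-2 proteases none was called, at a median of 0.22, with Creb3 at 168 and 171 CPM, Atf6b at 97.6 and 165 CPM and Creb3l2 at 19.8 and 25.9 CPM. All these tests are of 1 library against 1. Some markers of cortex, medulla, hepatocyte, endothelium, and fibroblast and capsule were called between the libraries, as given above. The part played by these cell types was not tested.

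**Figure D5:**
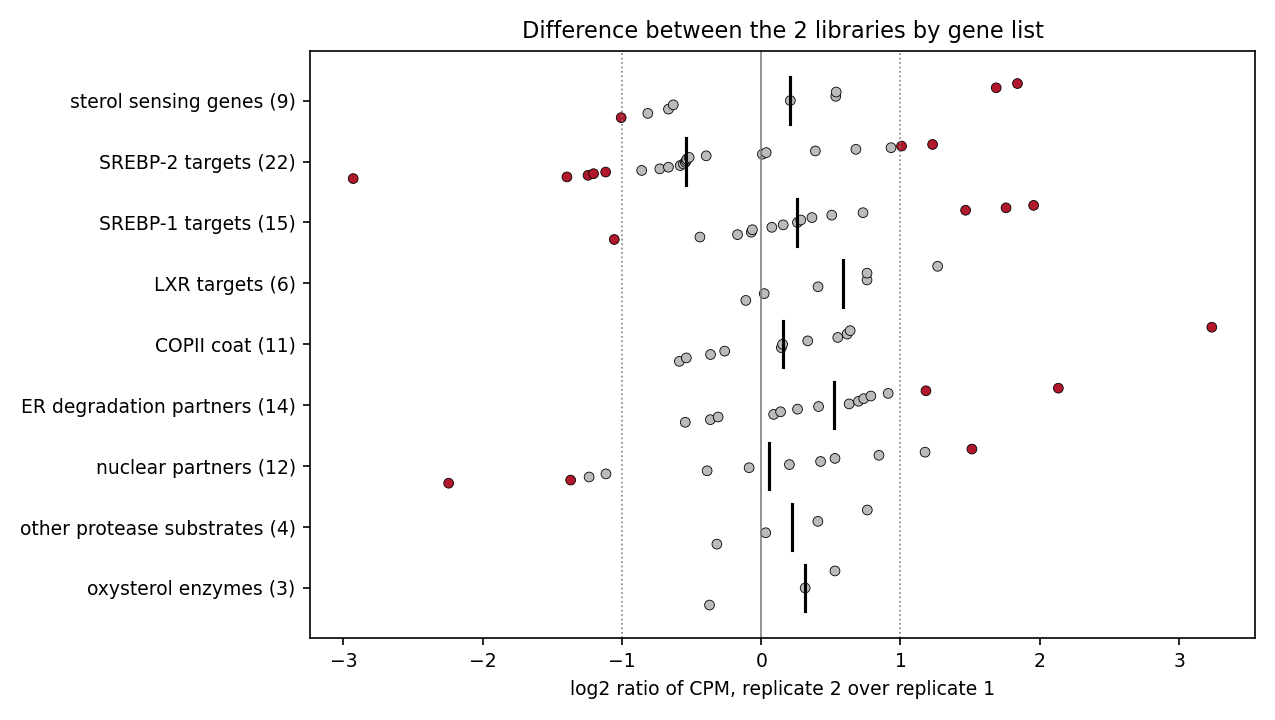
Log2 ratio of CPM, replicate 2 over replicate 1, for each tested gene of the 9 members and of each list, with called genes in red, the median as a black bar and 2-fold limits as dotted lines. SREBP-2 targets lie mostly below 0 (median -0.54), whereas Srebf2 and Nr1h3 are the members called higher.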

How the data were processed

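The authors deposited, per library, whole-number counts of reads per transcript model with the models' exons. They were made from filtered alignments to mm10 with GENCODE M21, per the deposited readme texts, and new models carry the source TALON. For the aligner, platform and versions: not given in the sources used here. Each count was taken as 1 read, and counts were summed per gene over all classes.

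The members and gene lists were chosen with earlier results of these data known. All members are named with every value. Of each list, the 3 tested genes with the highest mean CPM and every called gene are named, beside a few others chosen after their values were seen. Some genes this rule names are not reported here, though counts over lists include them. Models are named if they hold a sizeable share of a member's reads.

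CPM used reads of annotated nuclear genes. Genes with 10 or more reads in all were compared by two-sided Fisher's exact tests (scipy 1.17.1, Python 3.11.15), adjusted by Benjamini-Hochberg, since 1 library a side allows no dispersion estimate. Log2 ratios used 0.5 added reads, with counting SE. Shares needed 50 reads in each library. The first exon test, added later, needed 20 first-exon reads in each library and at least 2 annotated first exons. A first exon was one whose end is no internal exon's end in M21. edgeR 4.0.16 (TMM) and DESeq2 1.42.0 (median of ratios) gave scaling factors only. Chains were matched between libraries by their introns. The scripts were tested on simulated data. Sequences come from M21 transcripts and RefSeq promoters.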

Additional observations from a re-analysis of the deposited data

Results flagged for a closer look

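Within the span of Mbtps2, on the same strand, new intergenic models that the authors did not assign to an annotated gene had 4 reads in replicate 1 and 3 reads in replicate 2. These reads are not part of the Mbtps2 counts of 20 and 5 reads, and they lie above the 3 reads that a count of 0 allows in replicate 1 and at that limit in replicate 2. Their relation to Mbtps2 was not tested.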

How the results depend on the processing

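No paired analysis was possible because the 2 libraries form 1 group. Leaving out a library gave a summed member level of 1403 to 1726 CPM and a Srebf1 upstream share of 51.3% to 65.5%. That share was 100% with annotated models alone, whose chains with the downstream exon had no reads. At an adjusted p alone, 1823 genes (17.9%) and 6 members were called beside 971 and 3. In the lists, 14 SREBP-2 targets, 7 SREBP-1 targets, 2 COPII genes, 5 ER degradation genes and 1 protease substrate were called at that setting. Annotated models alone gave 5 members called (13.9% of genes), 5 SREBP-2 targets beside 7, 1 LXR target, 2 COPII genes, 4 ER degradation genes and 1 protease substrate. Without the genomic class, 4 ER degradation genes and 1 protease substrate were called (11.6% of genes). With no read minimum, 1 protease substrate was called (5.24% of genes). At 50 reads, 1 ER degradation gene and 1 nuclear partner were called (11.7% of genes), and with the deeper library thinned 1 and 0 (8.22% of genes). Reads with an annotated first exon alone, a setting chosen after seeing the data, gave 6 members (14.5% of genes). At 20 reads in each library, 575 genes were called in annotated share beside 371 and 566 in main transcript share beside 350. With incomplete splice matches counted as annotated, 104 genes and 0 members were called, and the differences of Scap, Mbtps1 and Nr1h2 reversed to -15.4, -13.7 and -10.3 percentage points. Among annotated and new spliced models only, 14 genes and 0 members were called in main transcript share, where the number of reads is smaller. In first exon share, 2 genes were called at 50 reads and 2 at an adjusted p alone, beside 1. Beyond the construction of each setting, the cause was not tested. The log2 ratios of Srebf2 and Nr1h3 stayed past the threshold under all 11 alternatives, and no member's ratio changed sign. Among named list genes, Rxrb turned to 0.0072 with TMM scaling and Hsd17b7 to 0.011 with annotated models alone. Apoe turned to -0.012 with thinning, -0.045 with annotated models alone, -5.48e-04 with spliced models alone and -0.049 with an annotated first exon alone, and Creb3 to -0.17, -0.019 and -0.12 with the last 3. Dhcr7 was not called with an annotated first exon alone, at 1.16, nor Stard4 with annotated models alone, nor Lpin1, Ncor1 and Tmub1 with thinning. Dhcr7, Sec31a, Ncor1 and Nrip1 had too few reads in annotated models to be tested at that setting. Depth limits Mbtps2, with 25 reads in all, and the first-exon shares of Nr1h3 and Mbtps1.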

Other observations

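Nearly all reads of Srebf1 outside annotated models ended in either of a pair of areas. In replicate 1, 161 of 220 such reads were in models that end at chr11:60199089 and 58 at chr11:60199591, and in replicate 2, 14 of 39 at chr11:60199089 and 25 at chr11:60199592. The ends of a model are those of the deposited model and not of each read. On the opposite strand at Srebf1, Rai1 had 23 and 7 reads, counted apart from Srebf1 by the authors.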
